A study of Mus musculus with 6 samples.

Results

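Cytosolic ribosomal protein genes were examined on 6 whole-transcript arrays of mouse muscle satellite cells, 3 of cultured and 3 of fresh cells. The cytosolic ribosome has a large and a small subunit, each an RNA core covered with many different proteins, and the genes of these proteins are normally transcribed in step. Their mRNAs begin with a run of pyrimidines, the terminal oligopyrimidine tract, through which the kinase mTOR and the RNA-binding protein LARP1 set how much of them is stored or translated. Satellite cells, the stem cells that repair muscle, are small and quiet in resting muscle, and they enlarge, make ribosomes and divide once activated.

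Both groups came from C57BL/6J mice aged 2 months, wild type as far as the labels go. Cells were sorted from hind-limb, abdominal and triceps muscle as positive for beta-1 integrin and CXCR4 and negative for Sca1, Ter119, CD11b, CD31 and CD45. The cultured group was grown for 5 days on collagen and laminin in F10 medium with 20% horse serum and bFGF, a growth factor, added daily at 5 ng/ml. The fresh group was the sorted cells of resting muscle. The design text gives 3 mice, and the labels do not tie an array to a mouse, so p-values reflect how far these samples differ among themselves, and that spread may be technical. The RNA is from bulk cells, in which fewer cells of a type and less RNA per cell cannot be told apart.

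Members were the genes whose symbol is Rpl, Rps or Rplp with a number and an optional suffix, leaving out pseudogene and S6 kinase symbols, and which had a probe set given to them alone. This gave 60 genes of the 19938 measured, 38 of the large and 22 of the small subunit. Their 212 probe sets held 200 distinct sets of values, and 38 genes had several. The brightest probe set by its mean over the 6 arrays stands for each gene. Of 83 protein-coding symbols in RefSeq that match the rule, 24 have no probe set of their own and are not among the members. Values are log2 intensities as deposited, in which a difference of 1 is a doubling. A probe set's value also depends on its probes, so it is called brightness here and is not read as an amount of one mRNA against another. As background, the 95th percentile over 1190 genes of olfactory or vomeronasal receptors was used, which came to 3.23 in cultured and 3.16 in fresh cells. In both groups 57 members lay above it, Rpl10l did so in fresh cells, and Rpl3l and Rpl39l did so in neither.

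The sorted cells carried their markers. Of 10 satellite cell markers, all were measured and above background in at least 1 group, and 6 were lower in cultured cells. The 3 endothelial markers measured, Pecam1, Cdh5 and Kdr, and the white blood cell markers Ptprc, Itgam and Adgre1 were within background in both groups. The remaining white blood cell marker measured, Cd3e, averaged 3.74 in cultured and 3.72 in fresh cells, above background in both. The summed level of the 4 white blood cell markers was 4.80 to 4.91 on cultured and 4.76 to 4.83 on fresh arrays. The summed level of 3 fibro-adipogenic markers was 4.61 to 4.71 on cultured and 8.09 to 9.10 on fresh arrays (log2), with 2 of the 3 lower in cultured cells. That of 3 genes of dividing cells was 6.04 to 7.71 on cultured and 4.76 to 5.19 on fresh arrays, with 2 higher in cultured cells. Of the tendon and Schwann cell markers measured, 0 passed in either direction (limma). At an unadjusted p under 0.05, 0 were lower and 1 higher (limma), where 9.06% and 8.58% of all genes were. No red cell marker was measured. The part of these markers in the ribosomal protein results was not tested. The arrays also differed in their bright end. The brightest 1% of probe sets, not of genes, began at 12.01, 9.43 and 9.96 on cultured replicates 1, 2 and 3. They began at 11.94, 12.18 and 11.93 on fresh replicates 1, 2 and 3. Probe sets of ribosomal protein genes are among them, so this difference between arrays includes that of the members. RMA, which the submitters name, normally gives arrays a like distribution, and the step that left this difference is not given in any source read here, so deposited fold changes of bright genes carry it.

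Ribosomal protein genes were dimmer in cultured than in fresh cells as deposited, but mainly on 2 of the 3 cultured arrays. The median member differed from its own fresh mean by -0.27 on cultured replicate 1, -2.88 on cultured replicate 2 and -2.32 on cultured replicate 3 (log2). On cultured replicate 1, 24 of the 60 members were within 0.2 of the fresh mean, and 6 were at least 1 below it. On cultured replicate 2, 55 were at least 1 below it, and on cultured replicate 3, 51 were. Cultured replicate 1 was the highest of the cultured arrays for 59 members and cultured replicate 2 the lowest for 53. The median SD of a member was 1.34 over the cultured arrays and 0.0822 over the fresh arrays, against 0.193 and 0.182 over all genes. Most genes are dim, and other genes as bright also spread widely over the cultured arrays. With a fresh mean of 10 to 12 the median SD over cultured arrays was 1.13 for members and 1.12 for other genes, and above 14 it was 1.70 for members and 1.43 for other genes. Over the fresh arrays it was 0.0249 for members and 0.0391 for other genes above 14.

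**Figure D1:**
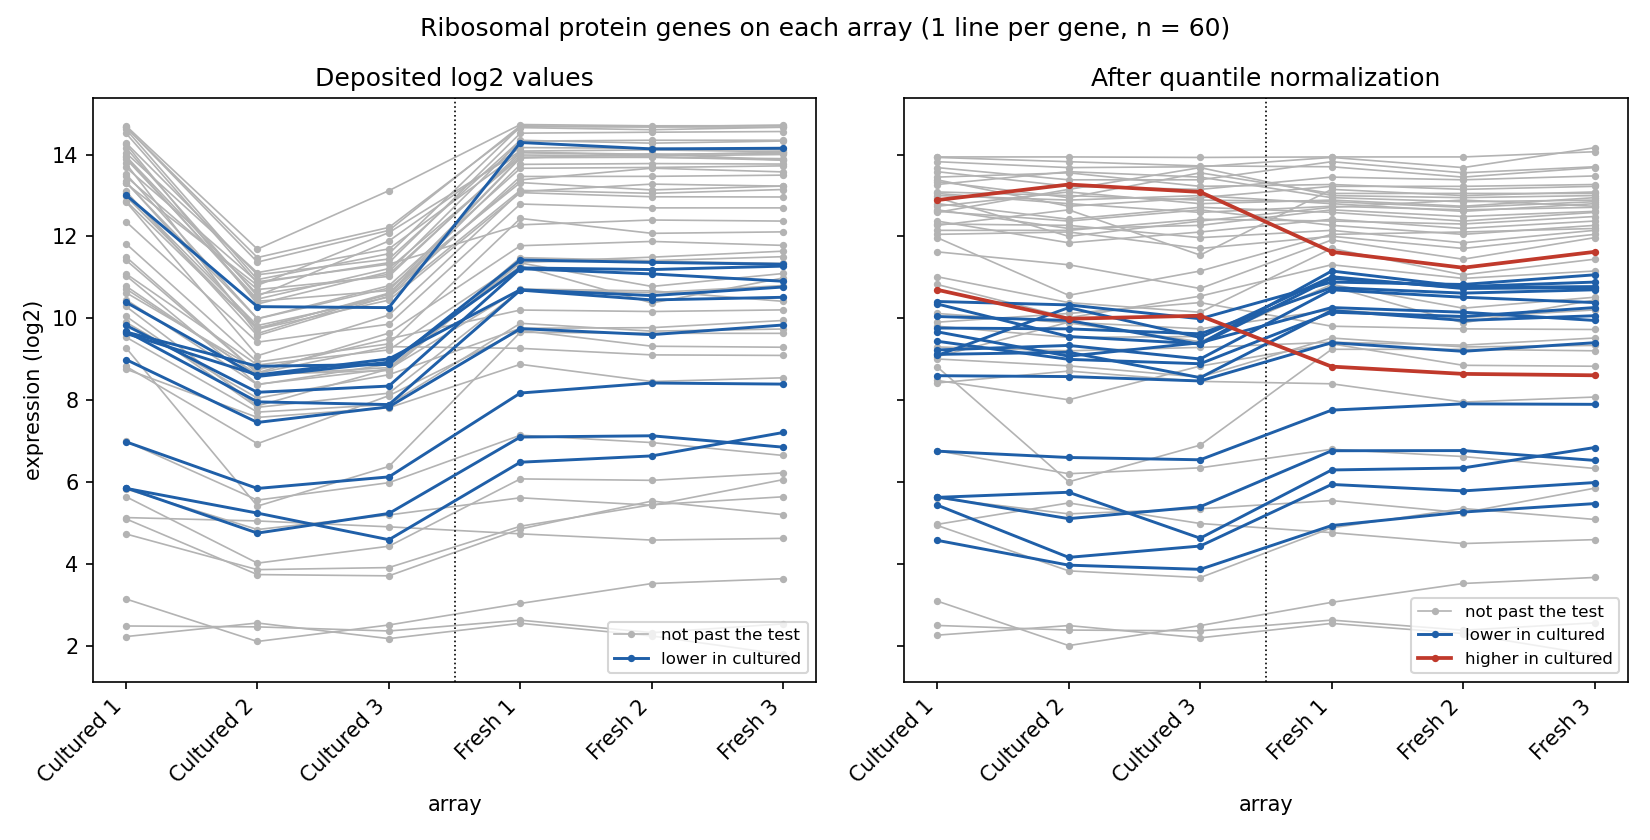
The log2 value of each of the 60 ribosomal protein genes on each array, 1 line per gene, as deposited (left) and after quantile normalization (right). Blue lines are genes lower and red lines genes higher in cultured cells at an adjusted p under 0.05, and most lines drop on cultured replicates 2 and 3 at the left and run nearly level at the right.

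Cultured and fresh cells were compared with limma across all 19938 genes, with Benjamini-Hochberg adjustment over all of them and a threshold of 0.05. Of the 60 ribosomal protein genes, 10 were lower and 0 higher in cultured cells, where 3.37% of all genes were lower and 0.953% higher. Most of those genes are dim, and among bright ones the shares differ. With a fresh mean of 6 to 8, 2 of 4 members were lower, against 27.2% of 839 other genes, and with one of 8 to 10, 2 of 8 members were, against 42.2% of 249. Between 10 and 12 it was 5 of 14 members, against 40.5% of 37 other genes. Between 12 and 14 it was 0 of 15 members, against 5 of 10 other genes, and above 14 it was 1 of 12 members, against 4 of 11. No test was made of these differences in share. The median log2 fold change was -1.94 over the members and 0.04 over all genes, and 57 members had a negative value. At an unadjusted p under 0.05 in limma, 51 members were lower and 1 higher, where 9.06% of all genes were lower and 8.58% higher. For 38 members all cultured values lay below all fresh values, and for 1, Rps4l, all lay above, where 10.3% and 12.9% of all genes did so. Many members with large differences did not pass. On cultured replicate 1 they lay nearer to the fresh arrays than on cultured replicates 2 and 3. Even there, 38 of the 60 members lay below all fresh arrays.

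The count depended on which arrays entered and how they were weighted. Without cultured replicate 1, 55 members passed as lower, where 6.41% of all genes did. Without cultured replicate 2, 5 passed (2.64% of all genes), and without cultured replicate 3, 2 did (1.91%). Without fresh replicate 1, 4 passed (3.06%), without fresh replicate 2, 3 did (2.1%), and without fresh replicate 3, 3 did (2.11%). One weight per array gave 46 (5.8%) and a trended robust prior gave 3 (3.35%). The median log2 fold change of the members ranged from -2.63 to -1.35 over the 6 fits with an array left out.

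Large subunit members that fell were Rpl36, Rpl14, Rpl22, Rpl13 and Rpl8. Rpl36 had the smallest adjusted p. Its values were 9.67, 8.83 and 8.87 on cultured arrays and 11.43, 11.37 and 11.32 on fresh arrays, with a log2 fold change of -2.25 ± 0.23 (SE, adjusted p = 0.00155, limma). All 3 cultured arrays were low and the groups did not overlap. Rpl14 had 6.98, 5.84 and 6.12 on cultured arrays, against 8.17, 8.42 and 8.39 on fresh arrays, a log2 fold change of -2.01 ± 0.28 (SE, adjusted p = 0.0067, limma). Rpl22, known in mice for its part in T cell development and not needed for the ribosome in many tissues, had 5.86, 4.75 and 5.23 on cultured arrays and 7.10, 7.13 and 6.85 on fresh arrays. Its log2 fold change was -1.75 ± 0.27 (SE, adjusted p = 0.0101, limma), and even the highest cultured array lay clearly below the lowest fresh array. Rpl13 had 9.83, 8.19 and 8.34 on cultured arrays and 11.21, 11.08 and 10.91 on fresh arrays, and its fold change was -2.28 ± 0.40 (log2, SE, adjusted p = 0.0184, limma). Rpl8, which lies next to the catalytic centre of the large subunit, had 8.99, 7.45 and 7.84 on cultured arrays and 9.75, 9.60 and 9.84 on fresh arrays (log2 fold change -1.63, adjusted p = 0.0469, limma).

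Small subunit members that fell were Rps19, Rps15a, Rps15, Rps3a1 and Rps21. Rps19, the gene most often mutated in the human anaemia named after Diamond and Blackfan, had 9.63, 8.62 and 9.01 on cultured arrays and 10.70, 10.55 and 10.77 on fresh arrays. Its log2 fold change was -1.59 ± 0.25 (SE, adjusted p = 0.0110, limma), and no cultured value reached a fresh one. Rps21 had the largest difference of all members as deposited. Its values were 13.02, 10.29 and 10.26 on cultured arrays and 14.30, 14.14 and 14.16 on fresh arrays, a log2 fold change of -3.01 ± 0.67 (SE, adjusted p = 0.0497, limma). Rps15a had 5.84, 5.24 and 4.59 on cultured arrays, against 6.48, 6.64 and 7.21 on fresh arrays (log2 fold change -1.55, adjusted p = 0.0416, limma). Its lowest value was on cultured replicate 3. Rps15, of the small subunit head, had 10.39, 8.58 and 8.93 on cultured arrays and 11.23, 11.19 and 11.28 on fresh arrays (log2 fold change -1.93, adjusted p = 0.0455, limma). Rps3a1 had 9.69, 7.96 and 7.89 on cultured arrays and 10.69, 10.45 and 10.51 on fresh arrays (log2 fold change -2.04, adjusted p = 0.0457, limma). The groups overlapped in none of these 5 genes.

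The largest differences that missed the threshold showed the split among cultured arrays. Rpl26, at the rim of the tunnel through which the new protein leaves, had 9.28, 5.41 and 6.38 on cultured arrays and 9.66, 9.63 and 9.63 on fresh arrays. Its log2 fold change was -2.62 ± 0.84 (SE, adjusted p = 0.154, limma). Only cultured replicate 1 stayed near the fresh arrays. Rpl21 had 13.79, 9.63 and 10.60 on cultured arrays, against 13.92, 14.02 and 13.87 on fresh arrays (log2 fold change -2.60, adjusted p = 0.186). Rpl9 and Rpl7, at -2.54 and -2.53, had the same order of arrays. Each of these 4 genes passed without cultured replicate 1.

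**Figure D2:**
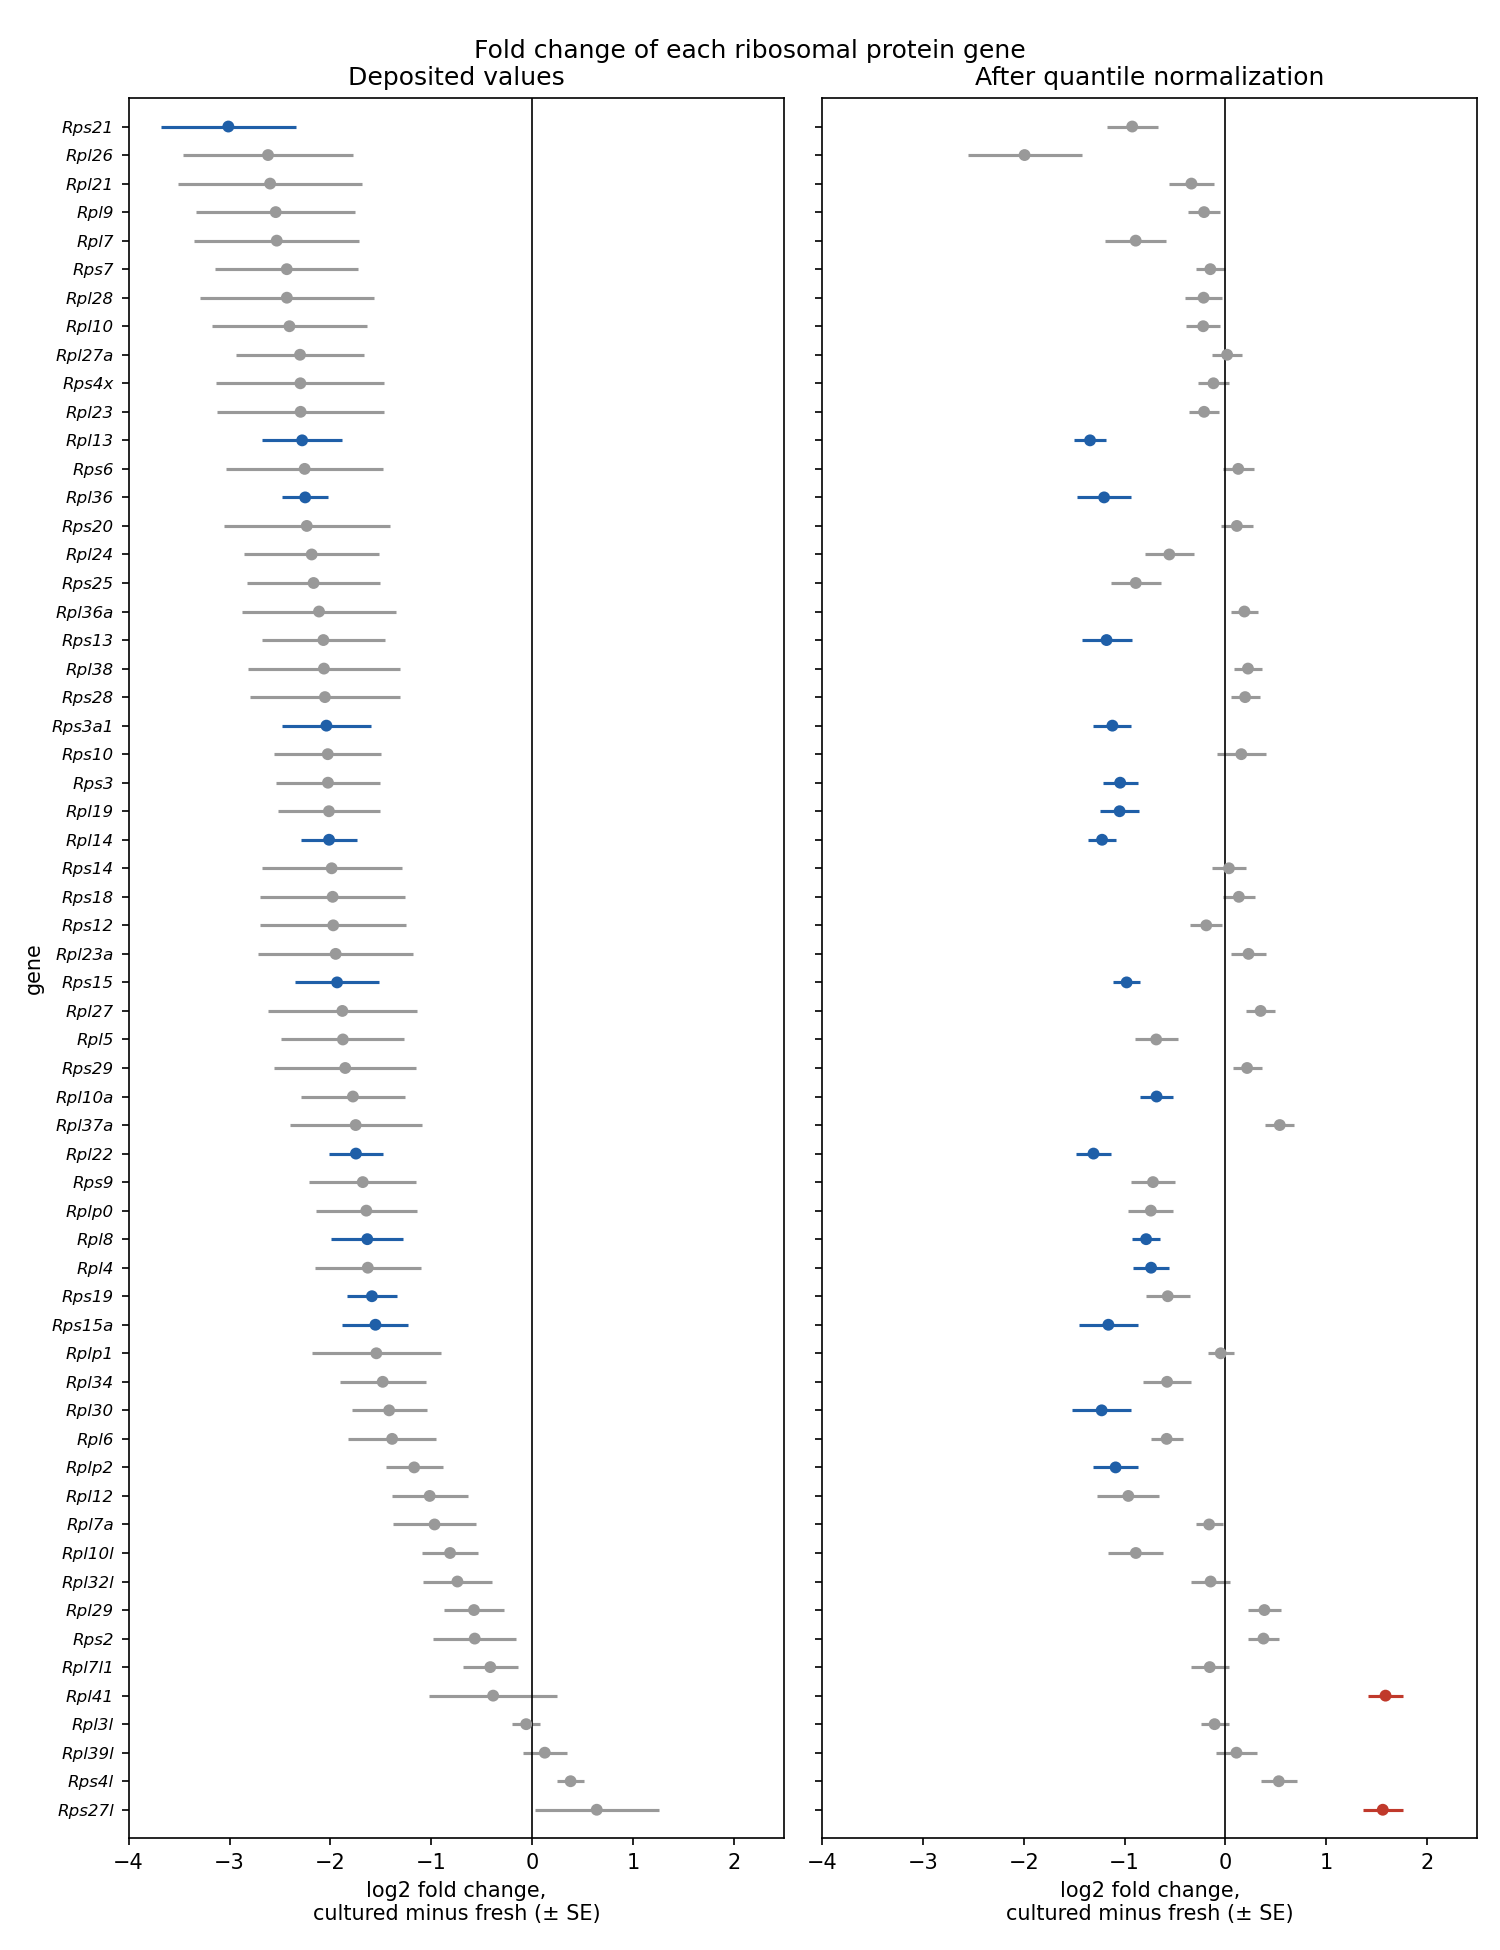
The log2 fold change of every member, cultured minus fresh, with its SE from limma (n = 3 arrays each), from deposited values (left) and after quantile normalization (right). Blue points are lower and red points higher in cultured cells at an adjusted p under 0.05, and grey points did not pass. Rps21 is lowest at the left, at -3.01, and Rpl41 and Rps27l are the red points at the right.

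The P stalk, which draws elongation factors to the large subunit, is formed by Rplp0, Rplp1 and Rplp2. None of the 3 passed, and 3 were lower at an unadjusted p under 0.05 (limma), as were 51 of the 60 members and 9.06% of all genes. Rplp0 had 10.46, 8.38 and 8.88 on cultured arrays and 11.28, 10.37 and 10.99 on fresh arrays (log2 fold change -1.64, adjusted p = 0.134, limma). Rplp1 had 14.71, 11.69 and 13.12 on cultured arrays and 14.74, 14.71 and 14.71 on fresh arrays, so that cultured replicate 1 was level with the fresh arrays (adjusted p = 0.262). Rplp2 was dim, at 4.73, 3.86 and 3.91 on cultured arrays and 4.92, 5.44 and 5.64 on fresh arrays (log2 fold change -1.17, adjusted p = 0.0667). Rpl5, which with Rpl11 carries the ribosome's small 5S RNA and can bind the p53 regulator Mdm2, had 11.50, 8.67 and 9.64 on cultured arrays and 11.77, 11.88 and 11.78 on fresh arrays (adjusted p = 0.157). The 4 measured members at the exit tunnel rim included 1 that fell, Rpl22, and the 10 measured in the small subunit head included 2, Rps15 and Rps19. Of 9 genes listed as mutated in Diamond-Blackfan anaemia, 4 were measured and 1 fell, Rps19. Beside these counts, 10 of all 60 members and 3.37% of all genes fell. At an unadjusted p under 0.05 all 4 of the tunnel rim, all 10 of the head and all 4 anaemia genes were lower (limma). The 3 measured X-linked members, Rpl10, Rps4x and Rpl36a, had log2 fold changes of -2.41, -2.30 and -2.11, and none passed, though 3 were lower at an unadjusted p under 0.05 (limma).

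Some members are paralogues, named as like another ribosomal protein. Among the 7 of them the median log2 fold change was -0.06 and 0 passed in either direction (limma). At an unadjusted p under 0.05, 1 was lower and 1 higher (limma), where 9.06% and 8.58% of all genes were. Rps27l, a target of p53 in human cells, had 11.42, 8.66 and 9.31 on cultured arrays and 9.27, 9.11 and 9.09 on fresh arrays (log2 fold change 0.64, adjusted p = 0.658, limma). Cultured replicate 1 was high, cultured replicate 2 was below the fresh arrays, and the groups overlapped. Rps4l had 5.13, 5.05 and 4.90 on cultured arrays, against 4.73, 4.58 and 4.62 on fresh arrays, with no overlap (log2 fold change 0.38, adjusted p = 0.183). Its parent Rps4x had 14.53, 10.86 and 11.36 on cultured arrays and 14.53, 14.55 and 14.57 on fresh arrays. A second probe set of Rps4l differed the other way, by -0.25. Rpl7l1 and Rpl32l had log2 fold changes of -0.41 and -0.74 with overlapping groups. Rpl10l, expressed in testis, had 2.10 to 3.14 on cultured and 3.03 to 3.63 on fresh arrays, close to background. The heart and skeletal muscle form Rpl3l was at most 2.48 on cultured and 2.62 on fresh arrays, and Rpl39l at most 2.55 on cultured and 2.54 on fresh arrays, all within background.

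Large and small subunit genes moved in the same direction on each cultured array, with gaps between them. The median difference from the fresh mean was -0.28 for large and -0.23 for small subunit genes on cultured replicate 1, -2.69 and -3.21 on cultured replicate 2, and -2.19 and -2.56 on cultured replicate 3. The gap, large minus small, was -0.05, 0.52 and 0.37 on these arrays in turn. Small subunit genes were also brighter, with a median of 12.76 on fresh replicate 1, against 11.33 for large subunit genes. The part of brightness in the gap was not tested. The median log2 fold change was -1.76 over the 38 large and -2.01 over the 22 small subunit genes. Large minus small came to 0.24, and to 0.14 without the 7 paralogues. The sign turned with the scaling: it was -0.31 after quantile normalization and -0.12 after cyclic loess. No test was made of this gap.

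**Figure D3:**
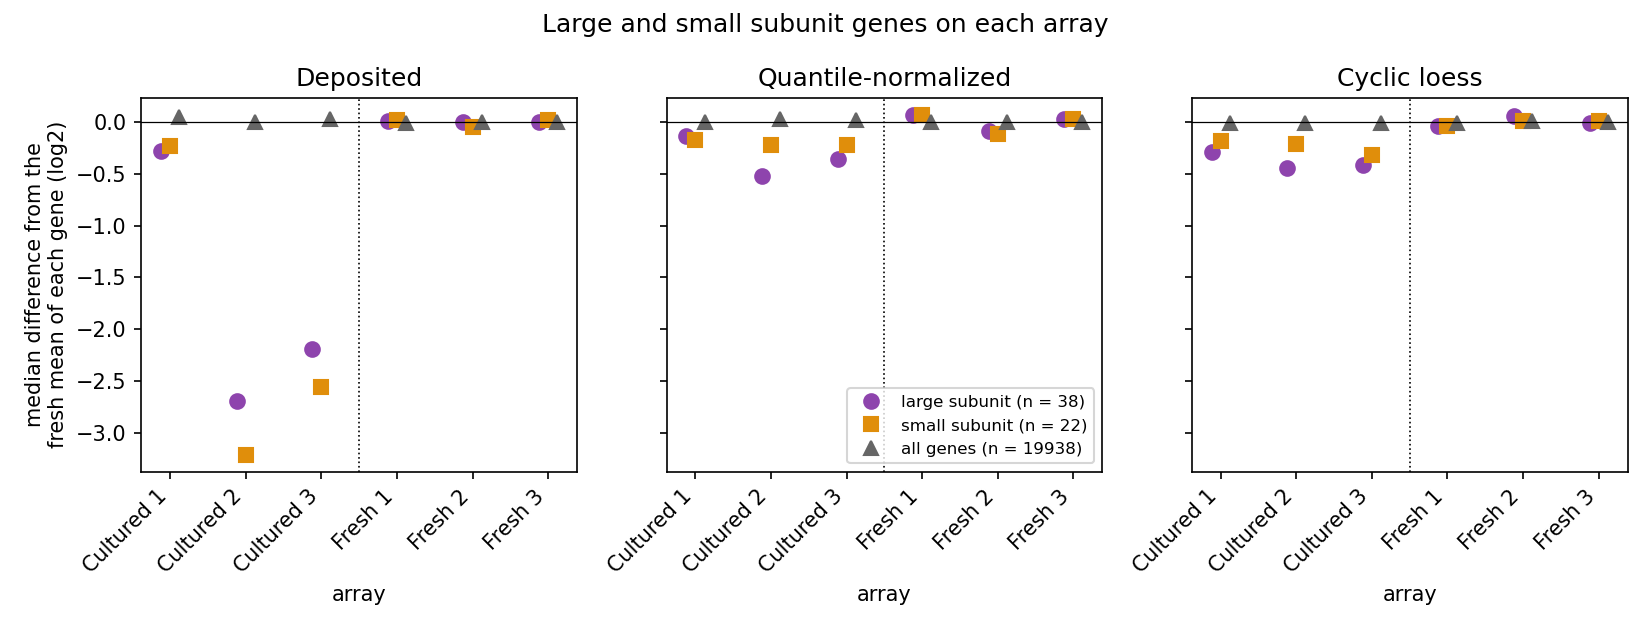
The median difference from each gene's own fresh mean (log2) on each array, for large subunit genes (circles, n = 38), small subunit genes (squares, n = 22) and all 19938 genes (triangles), on 3 scales. The subunits lie within 0.52 of each other on every array, and their fall on cultured replicates 2 and 3 to between -2.19 and -3.21 is seen on deposited values only.

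Quantile normalization gives every array the same distribution of values, and cyclic loess removes trends with brightness between arrays. Under quantile normalization the median log2 fold change of the members was -0.22. There, 15 members were lower and 2 higher in cultured cells, where 4.5% of all genes were lower and 3.5% higher (limma, adjusted over all genes). For 25 members all cultured values lay below and for 10 all lay above the fresh values, where 11.5% and 13.4% of all genes did so. Under cyclic loess the median was -0.35, with 12 members lower and 3 higher, where 5.1% and 2.5% of all genes were. The median SD of a member over cultured arrays was 0.242 after quantile normalization. Quantile normalization assumes that the distribution of values is alike in all samples. Which scale lies nearest to the cells' mRNA was not tested.

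Passing as lower on all 3 scales were 6 members: Rpl13, Rpl14, Rpl22, Rpl8, Rps15a and Rps3a1. After quantile normalization Rpl13 had a log2 fold change of -1.34 ± 0.15 (SE, adjusted p = 0.000844, limma), Rpl22 one of -1.31 and Rpl14 one of -1.22. Rpl36 and Rps15 also passed there, and missed it under loess. Rps19 and Rps21 passed as deposited and not after quantile normalization, with log2 fold changes there of -0.57 and -0.92 (adjusted p = 0.173 and 0.0591). Under loess Rps21 passed, with -1.01 (adjusted p = 0.00965), and Rps19 did not, with -0.34. Another 7 members passed after quantile normalization but not as deposited: Rpl10a, Rpl19, Rpl30, Rpl4, Rplp2, Rps13 and Rps3.

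The members higher after rescaling were Rpl41 and Rps27l, and Rps2 under loess. Rpl41 and Rps2 were singled out after their values were seen. Rpl41 encodes a very short basic peptide of the large subunit. As deposited it had 13.69, 10.89 and 11.32 on cultured arrays and 12.29, 12.40 and 12.38 on fresh arrays, a log2 fold change of -0.39 (adjusted p = 0.816), with cultured replicate 1 above and the other two below all fresh arrays. After quantile normalization its log2 fold change was 1.59 ± 0.17 (SE, adjusted p = 0.000533, limma) and the groups did not overlap. Its 3 probe sets carry identical values and count as 1. Rps27l had a log2 fold change of 1.56 ± 0.20 after quantile normalization (SE, adjusted p = 0.00153, limma). Rps2 had 0.68 under loess (adjusted p = 0.0326) and 0.38 after quantile normalization (adjusted p = 0.218).

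After rescaling, the members split by the brightness of their probe sets. Of the 27 with a fresh mean above 12, 0 were lower and 1, Rpl41, was higher after quantile normalization. Their median log2 fold change was 0.02. Other genes this bright numbered 10 at 12 to 14 and 11 above 14, so members were most of this bright end. Quantile normalization makes the bright end alike on all arrays. That median is therefore largely set by the method and is no finding about the members. At an unadjusted p under 0.05 in limma, 4 of these 27 members were lower and 3 higher on that scale, where 9.44% and 10.8% of all genes were. Of the 26 between 6 and 12, 14 were lower and 1, Rps27l, was higher, with a median of -0.76. After quantile normalization the median of other genes was -0.11 at 6 to 8, -0.35 at 8 to 10, -0.30 at 10 to 12, -1.16 at 12 to 14 and -0.03 above 14. Of these other genes 26.8%, 40.6% and 35.1% were lower in the 3 intervals from 6 to 12, 5 of 10 at 12 to 14 and 4 of 11 above 14. Of the 7 up to 6, 1 was lower, Rplp2. Other genes as bright also dropped on cultured replicates 2 and 3 as deposited. Above a fresh mean of 14, 12 members had median differences of -0.03, -3.33 and -2.71 on cultured replicates 1, 2 and 3. The 11 other genes there had -0.11, -3.25 and -3.01. Between 10 and 12, 14 members had -0.54, -2.65 and -2.29, and 37 other genes had -0.11, -2.33 and -1.57. Brightness moves with the difference, and its part in the result was not tested.

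**Figure D4:**
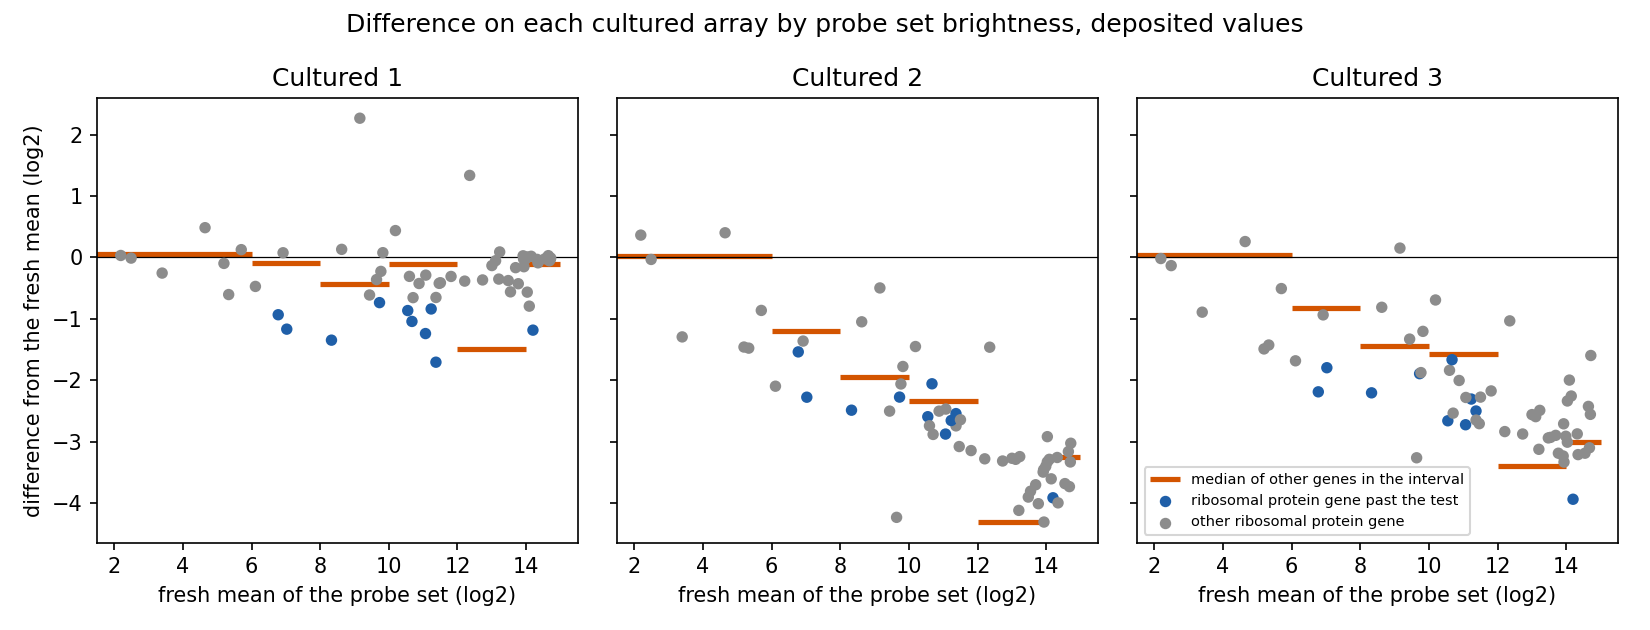
The log2 difference of each ribosomal protein gene from its fresh mean on each cultured array, against that fresh mean (log2), from deposited values. Blue points passed the test, grey points did not, and orange bars are the median of all other genes in each interval of brightness. On cultured replicates 2 and 3 the bars lie lower with each interval up to a fresh mean of 14 and less low above it, and most points above a fresh mean of 10 lie below -1.5.

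The probe sets of a gene spanned a median of 0.31 in log2 fold change over the 38 genes with several. Of the 212 probe sets, 209 had a negative log2 fold change as deposited, with a median of -2.04. The 9 probe sets of Rpl13 lay between -2.39 and -2.08, and the 6 of Rpl10 between -2.42 and -2.02. The widest range was that of Rpl27a, from -2.30 to -1.09, and Rps15, which passed, ran from -2.43 to -1.76. Ribosomal protein genes have many processed copies in the genome, with which probes can be shared, so a value may include signal from a copy. Another 237 probe sets were given to several genes with at least 1 symbol of the rule, and all 237 were negative, with a median of -2.04. Of the 24 symbols with no probe set of their own, 17 appeared there. For Rpl3, parent of Rpl3l, the brightest shared probe set had 10.26, 8.33 and 8.93 on cultured arrays and 10.31, 10.46 and 10.50 on fresh arrays. For Rps27, parent of Rps27l, it had 11.18, 8.80 and 8.90 on cultured arrays and 12.25, 12.19 and 12.27 on fresh arrays, with no overlap. For Rpl39 it had 14.41, 11.06 and 11.21 on cultured arrays and 14.56, 14.52 and 14.58 on fresh arrays.

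**Figure D5:**
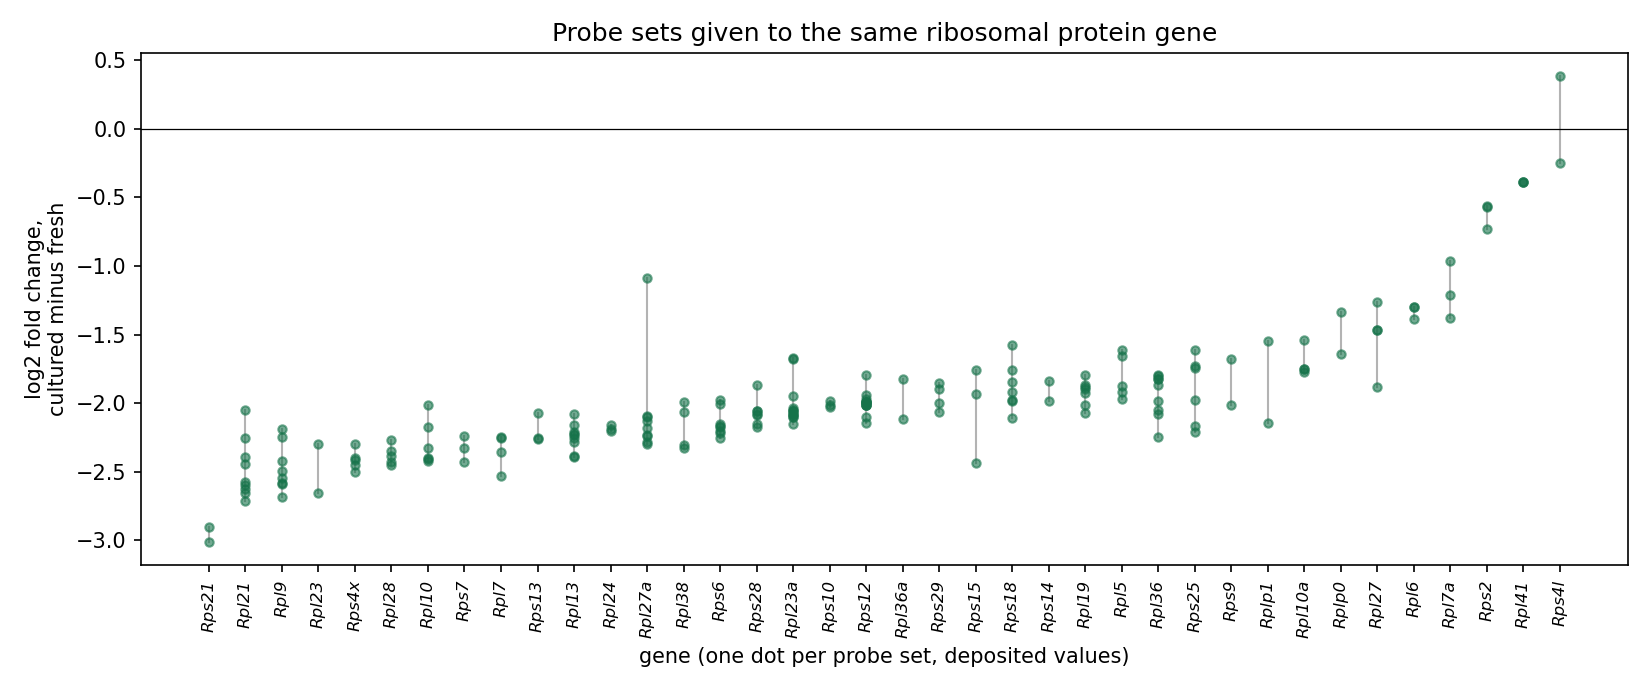
The log2 fold change, cultured minus fresh, of each probe set of the 38 members with several, from deposited values, 1 dot per probe set. Nearly all dots lie below 0, and the probe sets of Rps4l lie on both sides of it.

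Promoters were read because most members differed in the same direction on the deposited scale. RefSeq's windows from 250 bases before to 50 after a start site (GRCm38.p6) gave 57 windows for 48 of the 60 members, among 32851 in all. The run CTTTC, a core of the pyrimidine tract, was searched on the gene's strand in the last 100 bases, and CCGGAAG, the core bound by ETS factors such as GABPA, on both strands of all 300. Both are among 7 strings searched, some of which overlap, as CTTTCC contains CTTTC, and they were kept after longer forms had also been counted. CTTTC was in 22 of the 57 member windows, 38.6%, against 12.8% of all windows and 11.2% of those of genes on the array. CCGGAAG was in 19, 33.3%, against 8.86% of all windows and 12.1% of those of genes on the array. A match is a description and no proof of a site. The E-box CACGTG was in 12.3% of member windows and 7.15% of all. TATAAA, the core of the TATA box, was on either strand in 10.5% of member windows and 13.6% of all. On the gene's strand alone it was in 8.77% and 8.32%, and in the last 100 bases of that strand in 7.02% and 3.4%. The remaining strings were CTTTCC and CTTTTC, in 22.8% and 14.04% of member windows in the last 100 bases, against 4.69% and 3.69% of all, and AAGATGG, in 8.77% on both strands against 6.34% of all.

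Of the 20 members with CTTTC 5 fell, and of the 28 with a window but without it 3 fell. The stretches below show CTTTC in capitals in 4 of those 5, all but Rps19. They are given 5′ to 3′ on the gene's strand, near its start site. The first base of CTTTC lies at -11, -32, -11 and -32 from an annotated start, in the order shown. Each printed CTTTC thus lies before that start. In Rpl13 and Rps15a, with 1 window each, it is outside the annotated mRNA. Rpl22 and Rps21 each have another annotated start further upstream, and their CTTTC lies after that one. In Rps21 it is at 39 from that other start.
Rpl13, chr8:123102327-123102356, plus strand: gacgtcacttccCTTTCgcctgattttgat
Rpl22, chr4:152325682-152325711, plus strand: tctgactcctccCTTTCccgacagccgact
Rps15a, chr7:118116141-118116170, minus strand: ccggcccactctCTTTCtgccatcttccct
Rps21, chr2:180257405-180257434, plus strand: acgagctacttcCTTTCtgcgctctcgctg

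CCGGAAG, in capitals below, was found in 2 members that fell and in the 2 that were higher after quantile normalization, shown so that they can be set side by side. Of the 18 members with this string 2 fell, and of the 30 with a window but without it 6 fell.
Rps21, chr2:180257341-180257370, plus strand: gagtaccctgacCCGGAAGcacttaccgag
Rps3a1, chr3:86142660-86142689, minus strand: agattcttaaagCCGGAAGggcgaaagagc
Rpl41, chr10:128549207-128549236, minus strand: ctagtaaggcagCCGGAAGtcgctgtctcg
Rps27l, chr9:66946083-66946112, plus strand: gccgcctctatcCCGGAAGttgctgagggg
Among members with a window, the 20 with CTTTC had a median log2 fold change of -1.83 and the 28 without it of -1.97, as deposited. After quantile normalization these medians were -0.68 and -0.20. For CCGGAAG the medians were -2.02 in the 18 members with it and -1.88 in the 30 without it as deposited, and -0.07 and -0.56 after quantile normalization. None of these gaps was tested. Rps21 holds both strings, fell as deposited and under loess, and did not pass after quantile normalization.

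Of 2 measured ribosome components outside the symbol rule, 1 fell. Fau, which encodes a ubiquitin-like protein fused to the small subunit protein S30, had 10.24, 9.22 and 9.47 on cultured arrays and 12.18, 11.73 and 11.82 on fresh arrays (log2 fold change -2.27, adjusted p = 0.0032, limma). Rpsa, also known as a laminin receptor, had 8.96, 6.97 and 7.49 on cultured arrays and 9.45, 9.64 and 9.60 on fresh arrays (log2 fold change -1.76, adjusted p = 0.0787). The call moved from one gene to the other with the scale. After quantile normalization Fau had -0.99 (adjusted p = 0.0849) and Rpsa had -0.89 (adjusted p = 0.0134), and under loess Fau had -0.78 (adjusted p = 0.228) and Rpsa had -0.86 (adjusted p = 0.00734).

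Other genes whose mRNAs carry the pyrimidine tract, not all of them translation genes, were read beside the members. Of 18 measured of 22 listed, 2 fell and 0 rose (limma), and 10 were lower and 0 higher at an unadjusted p under 0.05 (9.06% and 8.58% of all genes). Their median log2 fold change was -0.94. The initiation factor genes Eif4a2 and Eif3h fell, with log2 fold changes of -2.73 and -1.75 (adjusted p = 0.0097 and 0.0235, limma). After quantile normalization the median was 0.06, with 3 lower and 2 higher (4.5% and 3.5% of all genes). The 2 higher were the histone chaperone genes Npm1 and Nap1l1. Npm1 had 9.99, 7.84 and 7.90 on cultured arrays and 8.45, 8.61 and 8.65 on fresh arrays as deposited, so its groups overlapped.

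Of 21 measured genes that regulate ribosomal protein mRNA, 2 fell and 0 rose (limma), and 7 were lower and 0 higher at an unadjusted p under 0.05 (9.06% and 8.58% of all genes). Their median log2 fold change was -0.18. Myc, a transcription factor that drives ribosome production, had 6.50, 5.38 and 5.21 on cultured arrays and 9.68, 9.86 and 9.75 on fresh arrays. Its log2 fold change was -4.06 ± 0.32 (SE, adjusted p = 0.000366, limma), and all 3 cultured arrays were far below the fresh arrays. Eif4ebp1, a repressor of translation that mTOR switches off, had 6.45, 6.15 and 6.21 on cultured arrays, against 7.28, 6.79 and 7.13 on fresh arrays (log2 fold change -0.80, adjusted p = 0.0457). Its value was -0.10 after quantile normalization (adjusted p = 0.865).

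Mitochondrial ribosomal proteins build the separate ribosome of that organelle. Of their 77 measured genes, 2 fell, Mrpl52 and Mrps28, and 3 rose, Mrps22, Mrps11 and Mrpl43, with a median log2 fold change of 0.24 as deposited. Over all genes 3.37% fell and 0.953% rose. After quantile normalization the median was 0.51, with 2 lower and 18 higher, where 4.5% and 3.5% of all genes were. The 2 lower there were Mrpl52 and Mrpl23 (Mrpl23 was named after its values were seen), while Mrps28 (-0.40, adjusted p = 0.268) and Mrpl43 (0.89, adjusted p = 0.06) did not pass. Mrps22 had 5.33, 4.93 and 4.58 on cultured arrays and 3.88, 4.02 and 3.68 on fresh arrays, with no overlap (log2 fold change 1.09, adjusted p = 0.0281, limma). Their probe sets are dimmer than most members', with a median on fresh replicate 1 of 5.23, and brightness moves with the difference as above. The difference between the mitochondrial and the cytosolic genes was not tested.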

How the data were processed

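The values deposited by the authors are log2 intensities for 35556 probe sets, with 6 arrays as columns. RMA and the package oligo were used, per the submitters' processing notes. RMA compresses differences near background. No scanner file was used, and for the genome build: not given in the sources used here. Of the probe sets, 21789 had 1 gene in the platform annotation, 1621 had several and 12146 were unlisted. The probe set with the highest mean stood for each of 19938 genes. Cultured and fresh arrays were compared with lmFit and eBayes of limma 3.58.1 in R 4.3.3, two-sided, and tables were made in Python 3.11.15. Quantile normalization and cyclic loess were run over the 19938 genes. The number of arrays limits precision. In all, 17 other settings were tried. The code was tested on simulated data. Members and lists were chosen with earlier results of these data known. Named genes are members past the test, the 5 largest differences each way, P stalk, 5S particle and paralogue genes with parents, companion genes past the test, and the measured ribosome components outside the rule.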

Additional observations from a re-analysis of the deposited data

How the results depend on the processing

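The median log2 fold change of the members was negative under every setting run, while the count of members lower in cultured cells moved. That count, 10 as reported, was 3 with a trended robust prior, 46 with array weights (array weights of 0.649, 0.567 and 2.63 for cultured replicates 1, 2 and 3) and between 2 and 55 when 1 array was left out. The number of members higher, 0 as reported, was 2 after quantile normalization and 3 under cyclic loess. The members' median was -0.22 after quantile normalization and -0.35 under cyclic loess. That of small subunit genes was -0.13 and -0.25 on these scales, and that of large subunit genes was -0.45 and -0.37. Leaving out 1 array gave medians from -2.63 to -1.35 for members. The cause of these shifts was not tested. Over all genes, quantile normalization gave 698 higher, loess 1017 lower and 498 higher, and array weights 1157 lower and 585 higher. Leaving out 1 array gave 380 to 1278 lower and 51 to 279 higher.

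The companion lists moved as well, and so did the shares over all genes. Of all genes, 5.1% were lower under loess, 3.35% with the trended prior and 5.8% with array weights. With 1 array left out the share lower ran from 1.91% to 6.41%. The share higher was 3.5% after quantile normalization and 2.5% under loess. Ribosome components outside the rule had 2 lower with median centring and array weights, 0 with the trended prior and 1 to 2 with 1 array left out. Other genes with the tract had 2 higher after quantile normalization, and 4 lower and 3 higher under loess. They had 4 lower with median centring, 1 with the trended prior, 6 with array weights and 0 to 15 with 1 array left out. Regulators had 5 lower under loess, 4 with median centring, 1 with the trended prior, 5 with array weights and 1 to 6 with 1 array left out. Mitochondrial ribosomal proteins had 18 higher after quantile normalization, 10 under loess, 1 lower with the trended prior, 4 lower and 6 higher with array weights, and 0 to 9 lower and 0 to 3 higher with 1 array left out.

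Among named genes, 10 values changed sign. Rpl41 was 1.59 after quantile normalization, 1.47 under loess and from -1.25 to 0.15 with 1 array left out, the highest without cultured replicate 2, and Rps2 was 0.38 and 0.68 on the rescaled values. Rplp1 was 0.81 under loess, Rps4l -0.25 with its second probe set and Rps27l -0.17 to 1.21 with 1 array left out, the lowest without cultured replicate 1. Rpl3l, at -0.15 to 0.0079, and Rpl39l, at -0.076 to 0.31 with 1 array left out, lie within background. Another 81 lost the threshold and 34 gained it, of the alternatives run for single genes, while 481 kept their side. With the replicate number as a replicate block, 10 members were lower, 9 of them shared (Rps15a lost its call, adjusted p = 0.100, and Rplp0 gained one, adjusted p = 0.0401, limma), 561 genes were lower and 101 higher in all, and 1 regulator and 1 mitochondrial gene were lower. The numbers do not pair the samples: same-numbered arrays had correlations of deviations of -0.09, -0.14 and 0.03. Probe sets near background limit what can be seen of Rpl3l, Rpl39l and Rpl10l.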
